A study of Homo sapiens with 6 samples.

Results

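The MYC family and the MAX network were examined in RNA-seq of A2780 cells and of a CDK12 knock-out clone of that line. The 10 members were MYC, MYCN, MYCL, MAX, MXD1, MXI1, MXD3, MXD4, MNT and MLX, chosen by their symbols after the Ensembl identifiers of the count table had been matched to GENCODE release 44, and all 10 were found among its 60483 listed genes. A2780 is an ovarian carcinoma line, grown here untreated in RPMI medium with serum and glutamine. The WT group held 3 libraries of unedited A2780 cells. The KO group held 3 libraries of A2780 KO, a line derived by repeated transfection with a plasmid that carried Cas9, GFP and a guide RNA against exon 1 of CDK12, the gene of a cyclin-dependent kinase that phosphorylates RNA polymerase II. A2780 KO is a single clone, taken from a second transfection of a heterozygous clone. Its differences from the parental cells therefore cannot be told apart from those of any single cell that was expanded. The paper also reports more DNA and more chromosomes per cell, slower growth and more apoptosis in this clone. The effects of these traits on RNA levels cannot be told apart here from those of CDK12 loss. Nothing in the labels says that the libraries of a group came from separate cultures, and p-values here measure only the spread between libraries.

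MYC, MYCN and MYCL are basic helix-loop-helix leucine zipper transcription factors that bind DNA as dimers with MAX and activate genes of growth, ribosome production and cell division. The MXD proteins, of which MXI1 is one, and MNT also dimerise with MAX, bind the same sites, and repress transcription through SIN3 and histone deacetylases. MLX is a MAX-like partner that dimerises with several MXD proteins and MNT as well as with the glucose-responsive factors MondoA (gene MLXIP) and ChREBP (gene MLXIPL). MYC is among the most often amplified genes in ovarian carcinoma.

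The sites shared by these dimers are E-boxes, of which CACGTG is the best known form. RefSeq promoters of build GRCh38.p14 were matched for 9 of the 10 members by symbol, and the 250 bases before each transcript start were searched for CACGTG, which reads the same on both strands; this search was chosen after the expression values were seen. MLX, MNT and MXD4 held 1 match each, and MYCN, MYCL, MAX, MXD1, MXI1 and MXD3 held none in these windows. MYC had no matched promoter and was not searched. Among all 35116 promoters of the table, 6.34% held a match, as did 11.2% of the 11165 genes that were also tested for expression. The sequences with a match are shown because they are the searched members in which the network's own binding motif lies within 250 bases before a RefSeq start. They run 5′ to 3′ on the strand of the gene, end where the annotated gene begins, and have the motif in capitals. The window of MLX is chr17:42566850-42567071 on the plus strand, that of MNT chr17:2401105-2401310 on the minus strand, and that of MXD4 chr4:2262110-2262359 on the minus strand.
MLX: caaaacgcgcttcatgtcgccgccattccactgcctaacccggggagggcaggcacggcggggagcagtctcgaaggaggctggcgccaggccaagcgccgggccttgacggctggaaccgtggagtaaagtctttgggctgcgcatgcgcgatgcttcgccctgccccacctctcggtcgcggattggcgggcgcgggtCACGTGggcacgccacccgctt
MNT: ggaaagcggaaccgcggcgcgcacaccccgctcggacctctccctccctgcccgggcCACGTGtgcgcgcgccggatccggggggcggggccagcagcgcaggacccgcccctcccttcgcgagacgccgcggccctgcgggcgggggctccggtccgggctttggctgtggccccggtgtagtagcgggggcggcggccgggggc
MXD4: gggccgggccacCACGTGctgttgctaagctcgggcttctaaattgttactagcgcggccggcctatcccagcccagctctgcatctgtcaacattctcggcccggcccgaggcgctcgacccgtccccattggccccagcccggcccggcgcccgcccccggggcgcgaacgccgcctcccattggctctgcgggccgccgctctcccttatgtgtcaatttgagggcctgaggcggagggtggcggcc
Counted back from the RefSeq transcript start, the motif begins at base -50 in MLX, -193 in MNT and -238 in MXD4. In KO cells MLX was lower, MNT higher and MXD4 not different from WT at the test's threshold, as described below, so the members that share the motif did not share a direction. A match of letters says nothing of binding, which was not measured.

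Total counts were between 11098400 (WT replicate 3) and 30899045 (WT replicate 2) per library. CDK12 transcripts, which an edit in exon 1 need not remove, were at 103, 125 and 116 CPM in the WT libraries and 98.9, 92.9 and 102 CPM in the KO libraries, where CPM is the count scaled to a common library size by TMM. CDK12 was slightly lower in KO (log2 fold change -0.23, standard error 0.0582 and adjusted p = 8.2e-04 in edgeR), so the transcript level alone does not show the knock-out. Of 10 epithelial and ovarian tumour markers, 4 were expressed well enough to be tested, and PAX8, WT1, CDH1, MUC16 and ESR1 had at most 6 counts in any library. Of these 4, the keratins KRT8 (7.33 to 10.9 CPM) and KRT18 (59.9 to 103 CPM) were higher in KO, and EPCAM (3.19 to 2.17 CPM) was lower, as was VIM, the mesenchymal intermediate filament gene (7228 to 1488 CPM). The summed level of the list, nearly all of it VIM, ran from 7147 to 7478 CPM in WT and from 1595 to 1620 CPM in KO. Among 10 markers of blood, endothelial and fibroblast cells, PTPRC, CD3E and PECAM1 had at most 2 counts in any library, while COL3A1 was abundant in both groups, with a log2 fold change of -0.01 that did not pass, and their summed level ran from 6509 to 6763 CPM in WT and from 5957 to 6175 CPM in KO. VWF, an endothelial gene, rose from 2, 7 and 3 counts to 18, 22 and 10, COL1A1 fell from 629 to 122 CPM, DCN and LUM had no count in any KO library, and the part of these genes in the results below was not tested. In bulk RNA, fewer cells that express a gene and less of its RNA per cell cannot be told apart.

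Of the 10 members, 9 passed the filter on low counts and were tested in edgeR's quasi-likelihood fit over all 16198 genes kept; MYCN did not. At an adjusted p under 0.05, 5 of the 9 were higher in KO, MYC, MAX, MXD1, MXD3 and MNT, and 3 were lower, MYCL, MXI1 and MLX. Over all tested genes, 31.9% were higher and 32.0% lower by the same rule, so a call by p alone was common in this comparison and 8 of 9 is to be read against 63.9%. When a log2 fold change beyond 1 in either direction was also required, MXD1 was up-regulated, against 8.30% of all tested genes, and MYCL and MXI1 were down-regulated, against 7.73%, together 3 of 9 against 16.0%. The WT and KO libraries did not overlap for 8 of the 9, all but MXD4, against 66.4% of all tested genes. The median log2 fold change of the 9 was 0.27, against 0.00 for all tested genes, and the median size of the change without its sign was 0.48, against 0.32. The members therefore did not move as a block, and the changes within the MXD group and within the MYC group went in opposite directions.

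**Figure D1:**
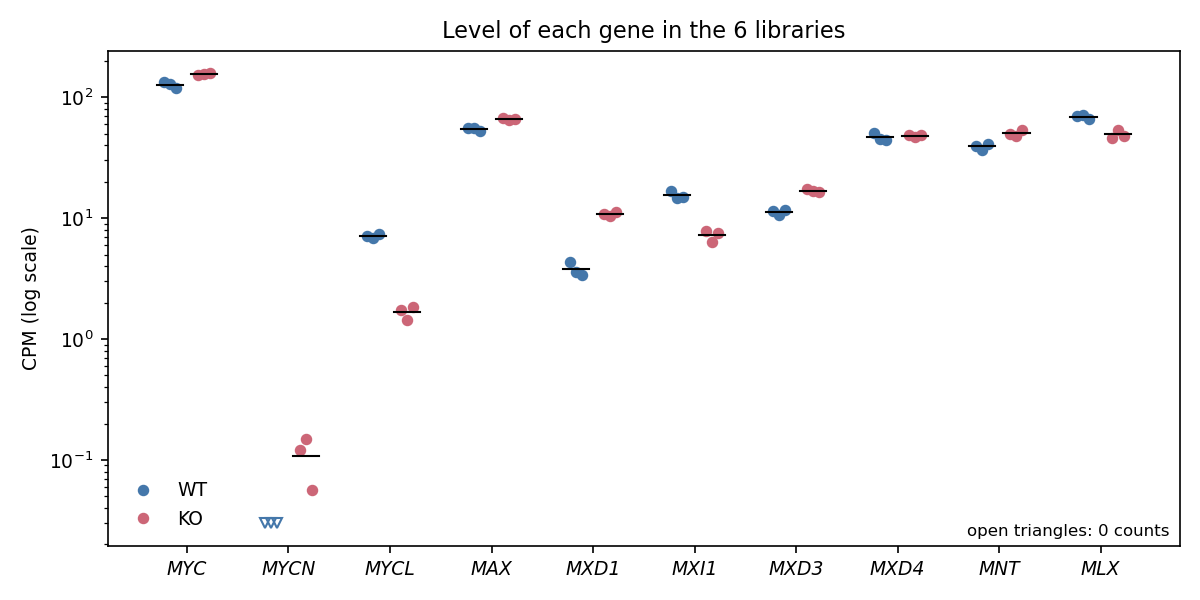
CPM (log scale) of each gene in the 3 WT and 3 KO libraries, with the group mean as a line; open triangles stand for libraries with 0 counts, drawn at an arbitrary low level. MYC lies above 120 CPM in all 6 libraries, and MYCL is near 7 CPM in WT and below 2 CPM in KO. MXD1 lies below MXI1 in WT and above it in KO in CPM, which does not take gene length into account.

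**Figure D2:**
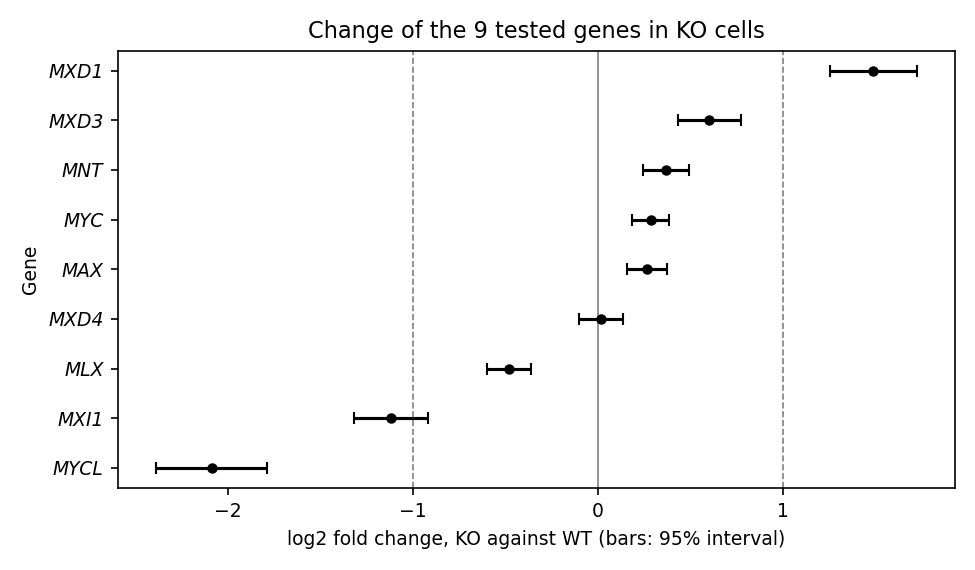
Log2 fold change of KO against WT for the 9 tested genes, with 95% intervals from the edgeR fit; dashed lines mark the fold thresholds. MYCL and MXI1 lie below -1, MXD1 lies above 1, and the interval of MXD4 spans 0.

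MYC (ENSG00000136997, chromosome 8) was the most abundant member. Its level was 133, 129 and 120 CPM in the WT libraries and 154, 156 and 158 CPM in the KO libraries. Every KO library lay above every WT library. Mean CPM was 127 ± 6.54 for WT and 156 ± 1.90 for KO (SD, n = 3 each), which made KO 1.22-fold higher (log2 fold change 0.29, standard error 0.0489, adjusted p = 6.03e-06, edgeR). Without its sign, this change was larger than 46.2% of those of all tested genes. Over the 6 refits with a library omitted, the log2 fold change of MYC ran from 0.25 to 0.31. PVT1, a long non-coding gene next to MYC that is often co-amplified with it, was at 10.7 ± 0.443 CPM (WT) and 9.26 ± 0.795 CPM (KO; SD, n = 3 each), with a log2 fold change of -0.20 that did not pass (adjusted p = 0.0729, edgeR).

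MYCL (ENSG00000116990, chromosome 1 from 39895428 to 39902256, minus strand), the paralog first found amplified in small cell lung cancer, showed the largest change of the members. It was counted 196, 205 and 82 times in WT and 43, 39 and 33 times in KO. In CPM these counts were 7.15, 6.83 and 7.38 in WT and 1.75, 1.45 and 1.85 in KO. All KO values lay far below the lowest WT value. MYCL fell 4.24-fold, log2 fold change -2.09 (standard error 0.148, 95% interval -2.39 to -1.78, adjusted p = 5.59e-14, edgeR), and it passed a test against the fold threshold itself (adjusted p = 5.58e-08, edgeR's glmTreat). MYCL-AS1, on the opposite strand, had at most 1 count in any library, so it added few reads to those of MYCL, of whose exon bases it covers 4.55%.

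MYCN (ENSG00000134323, chromosome 2 from 15940550 to 15947007, plus strand), the paralog amplified in neuroblastoma, was almost silent. No read was counted in the WT libraries and 3, 4 and 1 reads were counted in the KO libraries. These 8 counts came from a total of 68324260 in KO, while 0 of 69892601 in WT allows up to 3 counts, or 0.0438 CPM over the group; limits of this kind cover counting error only. The KO counts were at or near the floor of 3 counts per library, and no fold change is given. Its antisense gene MYCNOS had no count in any library.

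Compared per length, the family was almost wholly MYC. TPM, counts divided by the exon length of the gene and scaled to a common total in each library, were 72.1 ± 1.11 for MYC and 4.96 ± 0.356 for MYCL in WT, and 91.4 ± 1.34 and 1.21 ± 0.162 in KO (SD, n = 3 each). MYCL made up 6.20%, 6.11% and 7.01% of the TPM of the 3 family members in the WT libraries and 1.37%, 1.12% and 1.42% in the KO libraries. The ratio of MYC to MYCL was 15.1, 15.4 and 13.3 in WT and 71.7, 87.7 and 69.4 in KO. The groups were far apart in this ratio, and both the fall of MYCL and the smaller rise of MYC entered it.

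MAX (ENSG00000125952, chromosome 14 from 65006174 to 65102695, minus strand), the common partner, was at 55.7, 55.9 and 52.7 CPM in WT and 68.0, 64.9 and 65.8 CPM in KO. The KO libraries were all higher, with a 1.20-fold change (log2 fold change 0.27, standard error 0.0532, adjusted p = 5.57e-05, edgeR). MAX and MYC thus differed from WT by similar amounts, and the 95% intervals of their log2 fold changes, 0.16 to 0.38 for MAX and 0.19 to 0.39 for MYC, overlapped over most of their length. The summed TPM of the MYC family was 2.61, 2.52 and 2.51 times that of MAX in WT and 2.36, 2.50 and 2.50 times in KO, and the groups were separate by a narrow margin. Exons of FNTB on the opposite strand cover 13.1% of the exon bases of MAX and FNTB had a log2 fold change of 0.58, and the strand setting of the counting is not given in the sources used here.

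Among the MAX-binding repressors, MXD1 and MXI1 changed in opposite directions. MXD1 (ENSG00000059728, chromosome 2 from 69897688 to 69942945, plus strand), known as MAD1 and induced when many cell types stop dividing and differentiate, was counted 120, 107 and 38 times in WT and 267, 281 and 202 times in KO. The values were 4.37, 3.57 and 3.42 CPM in WT and 10.9, 10.4 and 11.3 CPM in KO, so that each KO library was above 10 CPM and no WT library reached 5. MXD1 rose 2.81-fold, log2 fold change 1.49 (standard error 0.116, 95% interval 1.25 to 1.72, adjusted p = 5.66e-13, edgeR), and passed the test against the fold threshold (adjusted p = 2.41e-04, glmTreat of edgeR). SNRNP27, which lies just upstream on the same strand and shares 3.73% of the exon bases of MXD1, had a log2 fold change of -0.25.

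MXI1 (ENSG00000119950, chromosome 10 from 110207605 to 110287365, plus strand), also called MXD2 and known as a target of hypoxia signalling, was counted 463, 444 and 166 times in WT and 191, 172 and 135 times in KO. It was at 16.9, 14.8 and 14.9 CPM in WT and 7.76, 6.38 and 7.58 CPM in KO, with a clear gap between the groups. MXI1 fell 2.17-fold (log2 fold change -1.12, standard error 0.0973, adjusted p = 9.3e-12, edgeR). Its 95% interval, -1.32 to -0.92, reached across the fold threshold, and it did not pass the test against that threshold (adjusted p = 0.318, edgeR's glmTreat). The annotation gives 38 transcripts of MXI1 from several starts, and counts per gene do not separate them.

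The TPM of MXI1 relative to that of MXD1 was 4.15, 4.46 and 4.70 in WT and 0.769, 0.658 and 0.719 in KO. MXI1 was the more abundant of this pair in every WT library, and the less abundant in every KO library. The order in KO depended on the length used: with the longest annotated transcript in place of all exons, the ratio was 1.15, 0.984 and 1.07 in KO, while it was at least 6.20 in WT. The fall of the ratio between the groups was present with either length.

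MXD3 (ENSG00000213347, chromosome 5 from 177301461 to 177312757, minus strand), a repressor that is unusual in the family for its expression in dividing cells, was at 11.5, 10.6 and 11.7 CPM in WT and 17.5, 16.9 and 16.4 CPM in KO. All KO libraries were higher, and the change was 1.52-fold (log2 fold change 0.60, standard error 0.0828, adjusted p = 1.46e-07, edgeR), under the fold threshold. RAB24 on the same strand shares 19.5% of the exon bases of MXD3 and had a log2 fold change of 0.68, and PRELID1 on the opposite strand shares 24.2% of them and had one of 0.09. How reads in these stretches were assigned is not given in the sources used here, so the values of MXD3 and RAB24 are uncertain to that extent.

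MXD4 (ENSG00000123933, chromosome 4 from 2247432 to 2262109, minus strand) was the most abundant MXD transcript and the only tested member that did not pass. It was at 51.0, 45.3 and 44.6 CPM in WT and 48.3, 46.8 and 48.4 CPM in KO, and the groups overlapped. The log2 fold change was 0.02 with a 95% interval of -0.10 to 0.14 (adjusted p = 0.813, edgeR).

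MNT (ENSG00000070444, chromosome 17 from 2384073 to 2401104, minus strand), the broadly expressed antagonist of MYC, was at 39.9, 36.8 and 40.9 CPM in WT and 50.1, 47.9 and 53.4 CPM in KO. It was higher in each KO library than in any WT library, by 1.29-fold (log2 fold change 0.37, standard error 0.0604, adjusted p = 3.06e-06, edgeR). A gene on the opposite strand, ENSG00000262456, covers 12.2% of its exon bases.

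Summed over MXD1, MXI1, MXD3, MXD4 and MNT, the repressors had 60.5, 54.8 and 60.4 TPM in WT and 70.2, 65.7 and 70.8 TPM in KO. The sum of the MYC family was 78.2, 76.7 and 76.5 TPM in WT and 92.3, 91.6 and 94.3 TPM in KO. Both sums were higher in every KO library. Their ratio, MYC family to repressors, was 1.32 ± 0.0702 in WT and 1.35 ± 0.0412 in KO (SD, n = 3 each), with overlapping groups: 1.27 to 1.40 in WT and 1.31 to 1.39 in KO. Within the repressor sum, the share of MXI1 was 15.5% ± 0.394 in WT and 6.35% ± 0.483 in KO, that of MXD1 was 3.51% ± 0.308 and 8.89% ± 0.158, and that of MXD3 was 14.0% ± 0.654 and 18.5% ± 0.873 (SD, n = 3 each). MXD4 and MNT together held the larger part of the repressor sum in both groups. These sums describe RNA only, and proteins of the network were not measured.

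**Figure D3:**
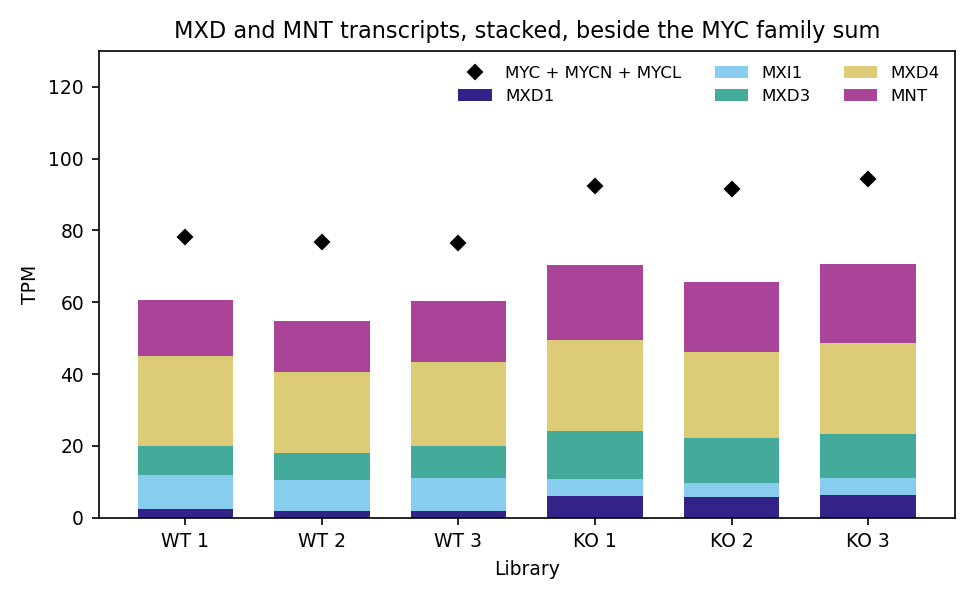
TPM of MXD1, MXI1, MXD3, MXD4 and MNT, stacked for each of the 6 libraries, and the summed TPM of MYC, MYCN and MYCL as diamonds. The diamonds lie above the bars by a similar ratio in WT (1.32 on average) and KO (1.35), while the MXI1 segment shrinks and the MXD1 segment grows in KO.

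MLX (ENSG00000108788, chromosome 17 from 42567072 to 42573239, plus strand), the MAX-like partner, was the only dimerisation hub of the network that fell. It was at 70.1, 70.8 and 66.0 CPM in WT and 46.4, 54.1 and 48.2 CPM in KO, and all KO libraries were lower. The fold was 1.39 downward (log2 fold change -0.48, standard error 0.0584, adjusted p = 1.48e-08, edgeR). Per length, the ratio of MAX to MLX was 0.541, 0.537 and 0.543 in WT and 0.996, 0.815 and 0.929 in KO, so the 2 hubs were closer to equal in KO. PSMC3IP on the opposite strand covers 18.2% of the exon bases of MLX and was lower too (log2 fold change -0.40, adjusted p = 1.49e-05, edgeR), and reads in the shared stretch cannot be told apart without the strand setting.

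Ordered by mean TPM in WT, the members were MYC (72.1), MLX (56.1), MAX (30.3), MXD4 (23.6), MNT (15.6), MXI1 (9.09), MXD3 (8.21), MYCL (4.96), MXD1 (2.06) and MYCN (0). Only MXI1 and MXD3 had overlapping values among neighbours in this order. In KO the order was MYC (91.4), MLX (41.7), MAX (37.9), MXD4 (24.9), MNT (20.7), MXD3 (12.8), MXD1 (6.12), MXI1 (4.39), MYCL (1.21) and MYCN (0.141), and no neighbours overlapped, although the lowest MLX value, 39.3, was close to the highest MAX value, 39.1. MYC stood at percentile 86.3 of the TPM of all tested genes in WT and 89.7 in KO, and MYCL at 30.9 and 12.2. MYC, MLX, MAX, MXD4, MNT and MYCN held the same places in both groups, and the changes of order lay among the low members MXD1, MXI1, MXD3 and MYCL.

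Genes with the most similar pattern over the 6 libraries were found by the Euclidean distance of log2 CPM centred on each gene's mean. Those nearest to MYC were TAF7, WBP2 and LINC02575 (distances 0.0242 to 0.0455), and 964 tested genes lay within 0.2 of it. DPH6, ITGAV and CYBRD1 were nearest to MYCL, CTSO, IRF2BP2 and DLX6-AS1 to MXD1, and CASP1P2, PCDHB11 and CLXN to MXI1, with 5, 7 and 8 genes within the same distance. More genes thus lay near MYC than near the other 3. Those 3 were taken because they passed both thresholds, as 16.0% of all tested genes did, so their lower counts are not a finding about their patterns. With 3 libraries per group such distances mostly follow the size of the group difference.

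The genes around the network were described from lists written by hand. Of the 3 network genes outside the members, MLXIPL (ChREBP, a lipogenic glucose sensor that pairs with MLX) was lower in KO, with mean CPM of 31.3 ± 1.17 (WT) and 19.8 ± 0.655 (KO; SD, n = 3 each; log2 fold change -0.65, adjusted p = 3.84e-10, edgeR). MLXIP (MondoA) had a log2 fold change of -0.01 and MGA, which joins MAX to a Polycomb-type complex, one of -0.09, and neither passed (adjusted p = 0.888 and 0.298, edgeR). The list of MondoA and MLX targets held ARRDC4 and TXNIP, arrestin-family genes that are the best known targets of this dimer and restrain glucose uptake, and they went in opposite directions. ARRDC4 was at 3.61, 3.20 and 4.32 CPM in WT and 21.6, 21.3 and 25.8 CPM in KO, a rise of 6.38-fold (log2 fold change 2.67, standard error 0.109, adjusted p = 2.1e-20, edgeR). TXNIP was detected with 18, 17 and 11 counts in WT and 2, 1 and 0 in KO, so that its summed level was 15.5 times higher in WT, with a 95% counting interval of 4.99 to 78.0 (exact binomial), and it passed both thresholds (adjusted p = 7.65e-07, edgeR). Both TXNIP values are low, and all 3 KO libraries were at or under 3 counts.

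Of 24 cofactors and regulators of MYC turnover, all tested, 5 were higher (20.8%, against 31.9% of all tested genes), 10 were lower (41.7%, against 32.0%) and 9 did not pass, with a median log2 fold change of -0.03. PIM1, a kinase that phosphorylates MYC and MYC-bound chromatin, was the gene past both thresholds: it was at 26.1, 23.5 and 25.5 CPM in WT and 2.28, 2.78 and 2.64 CPM in KO, a fall of 9.70-fold (log2 fold change -3.28, standard error 0.105, adjusted p = 2.7e-23, edgeR). HDAC1, a deacetylase recruited through SIN3 by the MXD proteins, was lower by less (log2 fold change -0.58, adjusted p = 2.16e-12, edgeR). AURKA, which stabilises MYCN protein, was lower too (log2 fold change -0.56, adjusted p = 2.65e-11, edgeR). FBXW7, the ubiquitin ligase subunit that marks MYC for breakdown, had a log2 fold change of 0.11 that did not pass (adjusted p = 0.152, edgeR). The 5 higher genes were MYCBP2, KAT2A, RUVBL1, MYCBP and SIN3A, with log2 fold changes of 0.42, 0.27, 0.25, 0.23 and 0.15.

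Genes commonly described as raised by MYC were taken in 5 lists, 97 genes in all, of which 95 were tested. By adjusted p under 0.05, 49 of the 95 (51.6%) were lower in KO and 19 were higher, against 32.0% and 31.9% of all tested genes, and the median log2 fold change was -0.12 against 0.00. The changes were small: POLR3G, a subunit of RNA polymerase III, was the only gene of the 95 past both thresholds, with mean CPM of 22.3 ± 2.51 (WT) and 10.8 ± 0.611 (KO; SD, n = 3 each; log2 fold change -1.02, adjusted p = 4.23e-12, edgeR). MYC itself was higher in KO, while more of the genes in these lists were lower than higher. The paper reports that this clone grew more slowly, and the part of growth rate in these counts was not tested. No test of the lists as a whole was made, and the lists were chosen with earlier results of these data known.

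The counts by list are to be read against the same 32.0% lower and 31.9% higher over all tested genes. Of 30 nucleolar and ribosome biogenesis genes, 13 (43.3%) were lower and 6 higher, among them RRP12, with a log2 fold change of 0.92. Of 20 nucleotide, one-carbon and polyamine genes, 11 (55.0%) were lower and 6 higher. The lowest p-values of that list belonged to the one-carbon enzymes SHMT2 and MTHFD1, which rose by 1.63-fold and 1.61-fold (log2 fold changes 0.71 and 0.68). Of 15 tested cell cycle targets, 10 (66.7%) were lower and 2 higher: CDCA7, a MYC-responsive gene of DNA methylation control, was lower (log2 fold change -0.55) and CDT1, a replication licensing factor, higher (0.43). CCND2, a classical MYC target, had at most 1 count in any library. Of 16 translation and protein folding genes, 7 (43.8%) were lower and 1 higher, with HSPE1, a mitochondrial chaperonin, at a log2 fold change of -0.32 and EIF3B, an initiation factor subunit, at -0.26. Of 14 tested genes of glucose and glutamine use, 8 (57.1%) were lower and 4 higher. LDHA, lactate dehydrogenase, fell 1.60-fold (log2 fold change -0.68), while SLC3A2, the heavy chain of amino acid exchangers, rose 1.64-fold (0.71).

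In the list of genes described as lowered by MYC, 6 of 14 tested genes were higher and 6 lower (42.9% each, against 31.9% and 32.0% of all tested genes), with a median log2 fold change of 0.06. CDKN1C, an imprinted inhibitor of cyclin-dependent kinases, rose 2.04-fold (log2 fold change 1.03, adjusted p = 9.72e-07, edgeR). THBS1, an inhibitor of blood vessel growth, and PDGFRB, a growth factor receptor, fell 3.92-fold and 3.77-fold (log2 fold changes -1.97 and -1.92, adjusted p = 5.02e-22 and 9.53e-14, edgeR). CDKN1A, the p21 gene that MYC holds down through ZBTB17, had a log2 fold change of 0.34.

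The tested genes whose start lies within 500 kb of a member were also examined. Of 134 such neighbours, 12 (8.96%) passed both thresholds, against 16.0% of all tested genes, and the median log2 fold change was -0.04. No neighbour of MXD1 (13 tested) or MXI1 (6 tested) passed both. Around MYCL, 3 of 15 did: BMP8B (log2 fold change -3.32) and HPCAL4 (-1.35) were lower and COL9A2 (2.01) was higher, while the closest tested genes, TRIT1 and MFSD2A, were lower by less (-0.23 and -0.48). The remaining neighbours past both thresholds were SPTB near MAX, DOK3 near MXD3, CAVIN1, CNTNAP1 and PTGES3L near MLX, and RTN4RL1, HIC1, SGSM2-AS1 and ENSG00000262533 near MNT. Around MXD3, 15 of 24 neighbours were higher at an adjusted p under 0.05 and 1 was lower, against 31.9% and 32.0% of all tested genes. Their median log2 fold change was 0.33. Around MYCL, 4 of 15 were higher and 9 lower by the same rule, with a median of -0.15. The karyotype of the KO clone in the paper lists gains and losses of whole chromosomes. Among them are a gain of chromosome 5, which holds MXD3, and losses of chromosomes 10 (MXI1), 14 (MAX) and 17 (MNT and MLX). The median log2 fold change of neighbours was -0.08 around MXI1, 0.24 around MAX, -0.05 around MNT and -0.25 around MLX. The part of copy number in these values was not tested. The only tested neighbour of MYCN, DDX1, which is often co-amplified with it, had a log2 fold change of -0.26.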

How the data were processed

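RNA of 3 WT and 3 KO samples was sequenced by the authors as stranded single-end libraries. The authors deposited raw counts per gene, made with FastQC, STAR (GRCh38) and HTSeq, and applied no normalization; versions, annotation release and strand setting are not given in the sources used here. Columns were matched to samples by their header names, and groups came from the genotype labels. Identifiers without version were matched to GENCODE release 44 (56321 genes, 93.1%).

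Counts were analysed in R 4.3.3 with edgeR 4.0.16: filterByExpr (minimum count 10, minimum total 15), TMM scaling and the quasi-likelihood test, two-sided, with Benjamini-Hochberg adjustment over 16198 genes. Standard errors are the log2 fold change divided by the square root of F. TPM used the union of exons. Log2 CPM used a pseudocount of 0.1. In an exact permutation test of log2 CPM for each tested member, two-sided, 8 reached p = 0.1, the smallest that 3 against 3 libraries allow, and MXD4 gave 0.8. The study's tool, voom/limma (limma 3.58.1), and DESeq2 1.42.0 were alternatives. The fit was checked on simulated data. Figures used Python 3.11.15 and matplotlib 3.10.9.

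The members and gene lists were chosen with earlier results of these data known. Genes named are the members, list genes and neighbours past both thresholds, the 3 nearest patterns of MYC and of members past both, and the 2 lowest p-values of target lists without such a gene. MLXIPL, MLXIP, MGA, HDAC1, AURKA, FBXW7, MYCBP2, KAT2A, RUVBL1, MYCBP, SIN3A, RRP12, CDKN1A, CCND2, TRIT1, MFSD2A, DDX1 and the overlapping and marker genes were named after their values were seen.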

Additional observations from a re-analysis of the deposited data

How the results depend on the processing

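Each of the 9 tested members was refitted under 12 alternatives: voom/limma, DESeq2, median-of-ratios and upper-quartile scaling, no filter beyond 1 count, at least 10 counts in every library, and omission of each library. The 8 members that passed kept direction and threshold in all 12; MXD4, which did not pass, ranged from -0.02 to 0.08, and was negative without WT replicate 2 (-0.02) and without WT replicate 3 (-0.01). With each library left out, MYCL lay between -2.15 and -1.97, MXD1 between 1.41 and 1.61 and MXI1 between -1.18 and -1.02. Without the filter, MYCN was tested (adjusted p = 0.0188, edgeR), which made 6 members higher and 4 past both thresholds. The test against the fold threshold left 2 of 3, without MXI1. Requiring 10 counts in every library left 567 up-regulated and 687 down-regulated genes among 13405, against 1345 and 1252 among 16198. That rule drops every gene with fewer than 10 counts in any library, also those that are low in only 1 group. With the longest transcript as length, 8 members in WT and 6 in KO kept their place in the order of TPM: MLX and MAX changed places in KO, as did MXD1 and MXI1, and in WT MXI1 and MXD3. Among the 95 MYC targets, counts with a library left out were 15 to 20 higher and 40 to 48 lower; these alternatives were added after the data were seen. No paired analysis was possible because sample titles run from 1 to 6 without a shared number between groups. Depth limits MYCN and TXNIP, which had at most 4 and 2 counts in a KO library.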
